A study of Mus musculus with 8 samples.

Results

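To describe the B lineage in *Setd2*-targeted lung tumors, the mRNA counts of 9 genes were read in 8 mouse tumors. The genes were chosen by name as markers of these cells from the 48709 genes of the count table. B cells were represented by 6 genes (*Cd79a*, *Cd79b*, *Ms4a1*, *Pax5*, *Cd22* and *Ighm*) and antibody-secreting plasma cells by 3 (*Igkc*, *Jchain* and *Mzb1*). All 9 were found once in the table, and all 9 passed the filter on low counts that left 14929 genes for testing. The tumors came from mice with the *K* genotype, in which Cre starts lung tumors, on a mixed B6J and 129S4vJae background. According to the study's methods, a lentivirus that carried Cre, Cas9 and a guide RNA was delivered through the trachea, with a guide against *GFP* for *K-Ctrl* and, for *K-Setd2KO*, a guide against *Setd2*, the gene of a histone H3 methyltransferase. Each group had 4 tumors. Both groups thus share the *K* genotype, Cre and Cas9, and cells that the virus did not reach keep their alleles. The study chose the tumors for like stage by histology and called the *K-Setd2KO* tumors low-grade adenomas. The labels give neither age nor animal of each tumor, so p-values measure the spread between these 8 samples, and they describe frozen tumors in one place and RNA from cell lines in another, which was not resolved.

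B cells carry an antibody in their membrane as the B cell receptor. The heavy chain (*Ighm* for IgM) and a light chain (mostly kappa, *Igkc*, in mice) bind antigen, and the paired proteins CD79A and CD79B pass the signal into the cell. When a B cell becomes a plasma cell it switches off *Pax5* and surface proteins such as CD20 (*Ms4a1*) and CD22, and makes secreted antibody in very large amounts with the help of endoplasmic reticulum proteins such as MZB1. At mucosal surfaces, including the airways, many plasma cells secrete IgA (*Igha*), which the J chain (*Jchain*) joins into polymers that the receptor encoded by *Pigr* carries across the epithelium.

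Total counts ranged from 5806599 to 21290402 per tumor, so that 3 counts, the limit taken for a gene with none, stood for 0.141 to 0.517 counts per 1e6 of a tumor's raw total. CPM values elsewhere are counts scaled to a library of 1e6 after TMM adjustment. *Setd2* mRNA had a log2 fold change of −0.05 (SE 0.12, adjusted p = 0.824), and since an edit need not change a gene's count, this does not check the labels. By *Xist* and Y-linked genes, 1 *K-Ctrl* tumor (replicate 2) and 3 *K-Setd2KO* tumors (replicates 1, 2 and 4) were female, so sex and genotype were partly confounded. The lung label was borne out by the 6 alveolar type 2 markers, which summed to 39459 to 58966 CPM in *K-Ctrl* and 47224 to 65870 in *K-Setd2KO*. Pan-leukocyte markers summed to 428 to 864 CPM against 149 to 205, with 5 of 6 called lower in *K-Setd2KO* and none at 0. In such bulk samples, fewer cells of a type and less RNA per cell cannot be told apart.

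Of the 9 genes, 1 fell in *K-Setd2KO* tumors, the B cell gene *Cd22*, and none rose (edgeR, adjusted p under 0.05). Over all tested genes, 7.74% were called lower and 4.97% higher, so 1 of 9 is a share near that background. At an unadjusted p under 0.05 there were 4 (*Cd79a*, *Ms4a1*, *Pax5* and *Cd22*), each lower in *K-Setd2KO*. The sign was negative for 7 of the 9, and the median was −1.85 (log2 fold change), against 0.03 over all tested genes. *Cd79b* and *Ighm* had positive values. None of the 3 plasma cell genes passed the test, none had an unadjusted p under 0.05, and DESeq2 called none of them and had 1 at an unadjusted p under 0.05.

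**Figure D1:**
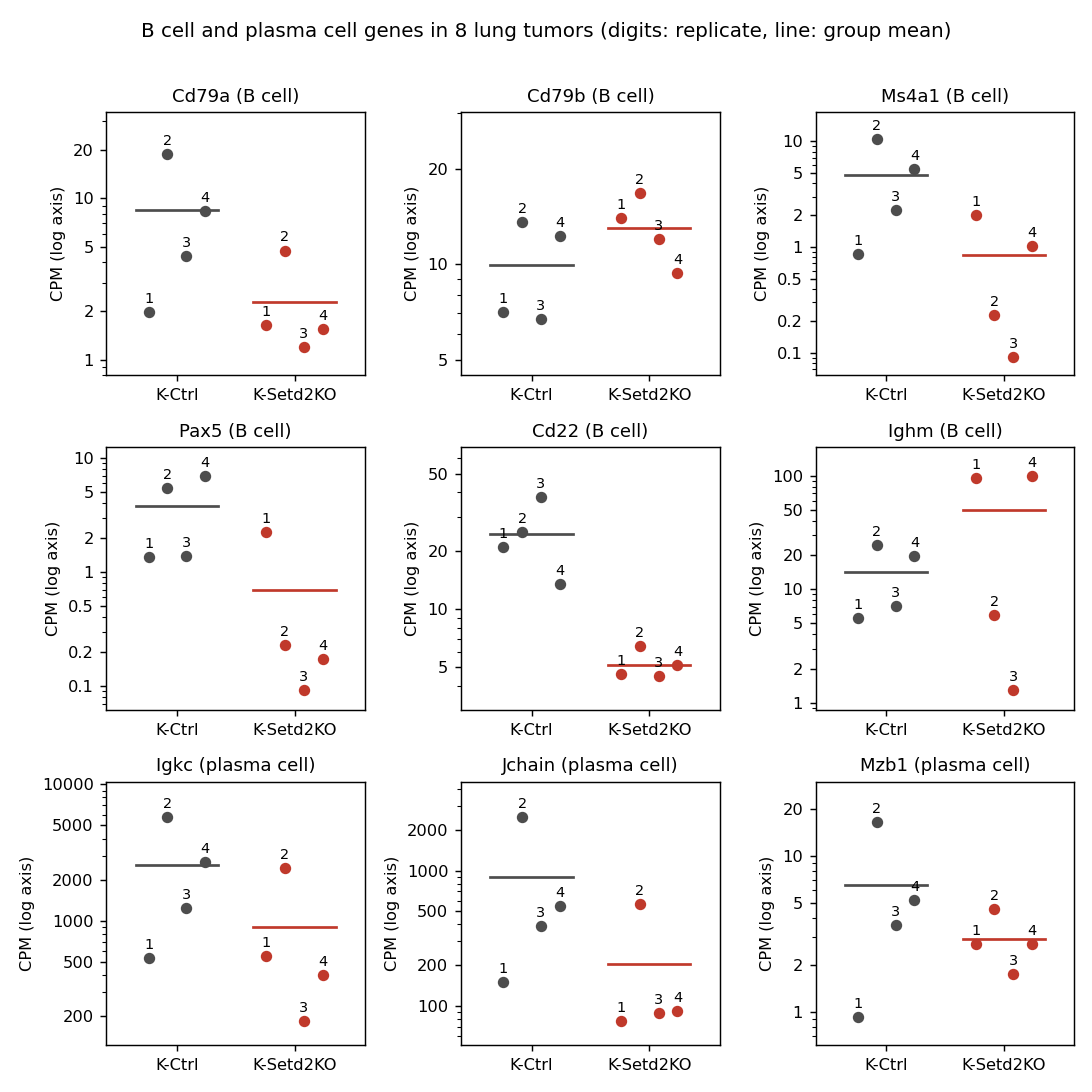
Level of each of the 9 genes in every tumor, in CPM on a log axis that differs between panels. Points are tumors with their replicate number, and lines are the means of each group. Only the *Cd22* panel shows groups that do not overlap (13.5 to 38 CPM against 4.52 to 6.43).

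Among the parts of the B cell receptor, the signaling partners *Cd79a* and *Cd79b* differed in how they varied. *Cd79a* (ENSMUSG00000003379.7, GRCm38, chromosome 7, 24897381 to 24902197, plus strand) stood at 1.97, 18.9, 4.39 and 8.39 CPM in *K-Ctrl* replicates 1 to 4 and at 1.64, 4.74, 1.20 and 1.54 CPM in *K-Setd2KO* replicates 1 to 4. *K-Ctrl* replicate 2 was the highest tumor, and the groups overlapped because *K-Setd2KO* replicate 2 lay above *K-Ctrl* replicates 1 and 3. The log2 fold change was −1.85 (SE 0.72) with an adjusted p of 0.120 in edgeR and an exact permutation p of 0.114 (two-sided). This gene was called lower by DESeq2 (log2 fold change −1.87, adjusted p = 0.0355), which called 12.5% of all tested genes lower, and in edgeR once sex was a term beside genotype (−2.46, adjusted p = 0.0459), a fit that called 5.25% lower. Without *K-Ctrl* replicate 2 it was −1.08 (adjusted p = 0.327), and no fit that left out 1 tumor called it.

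*Cd79b* (chromosome 11, 106311341 to 106314762, minus strand) encodes the partner of CD79A in the same receptor. Its level was 7.08, 13.6, 6.69 and 12.3 CPM in *K-Ctrl* and 14.0, 16.8, 12 and 9.41 CPM in *K-Setd2KO*. The groups overlapped, the log2 fold change was 0.40 (SE 0.29, adjusted p = 0.389), and the exact permutation p was 0.200. The highest tumor stood 2.5-fold over the lowest, against 15.8-fold for *Cd79a*. That made *Cd79b* the steadiest of the 9 genes across the 8 tumors.

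*Ighm* (chromosome 12, 113418558 to 113422730, minus strand), the constant part of the IgM heavy chain, split the *K-Setd2KO* tumors. It stood at 5.60, 24.4, 7.16 and 19.5 CPM in *K-Ctrl* and at 95.6, 5.97, 1.29 and 99.1 CPM in *K-Setd2KO*. *K-Setd2KO* replicates 1 and 4 were thus the 2 highest tumors, with 1861 and 579 counts, while replicate 3 was the lowest of all 8. The log2 fold change of 1.84 (SE 1.11, adjusted p = 0.302; exact permutation p = 0.400) did not pass the test, and with sex as a term it turned to −0.45 (adjusted p = 0.892).

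CD20 (*Ms4a1*, chromosome 19, 11249675 to 11266241, minus strand) is a surface protein of B cells that plasma cells lack. *Ms4a1* had 0.862, 10.4, 2.26 and 5.53 CPM in *K-Ctrl* and 2.00, 0.229, 0.0923 and 1.03 CPM in *K-Setd2KO*. *K-Setd2KO* replicates 2 and 3 were the lowest, the latter at the level of 1 count, but *K-Ctrl* replicate 1 lay below *K-Setd2KO* replicates 1 and 4. For *Ms4a1* the log2 fold change was −2.44 (SE 0.96, adjusted p = 0.126; exact permutation p = 0.0857). It was called lower by DESeq2 (−2.49, adjusted p = 0.0366) and with sex as a term (−3.64, adjusted p = 0.0490). No fit that left out 1 tumor called it, with values from −3.59 without *K-Setd2KO* replicate 1 to −1.72 without *K-Ctrl* replicate 2 (adjusted p from 0.0751 to 0.302).

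*Pax5* (chromosome 4, 44524757 to 44710487, minus strand) encodes the transcription factor that maintains B cell identity and is shut off in plasma cells. It stood at 1.35, 5.46, 1.38 and 6.87 CPM in *K-Ctrl* and at 2.26, 0.229, 0.0923 and 0.171 CPM in *K-Setd2KO*. A single tumor, *K-Setd2KO* replicate 1, made the groups overlap, the other *K-Setd2KO* tumors lying below every *K-Ctrl* tumor. The log2 fold change of −2.26 (SE 0.96, adjusted p = 0.153; exact permutation p = 0.0857) became −4.41 (adjusted p = 0.0279) without that tumor, a fit in which 6.03% of all tested genes were called lower.

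*Cd22* (ENSMUSG00000030577.13, chromosome 7, 30865402 to 30880342, minus strand) encodes a lectin-type receptor that binds sialic acid and restrains B cell receptor signaling. *Cd22* stood at 20.9, 25.1, 38 and 13.5 CPM in *K-Ctrl* and at 4.62, 6.43, 4.52 and 5.13 CPM in *K-Setd2KO*. Every *K-Setd2KO* tumor lay below every *K-Ctrl* tumor, which held for 11.2% of all tested genes in that direction. The mean fell from 24.4 ± 10.3 to 5.18 ± 0.875 CPM (SD, n = 4, exact permutation p = 0.0286, the smallest that 4 against 4 tumors can give). On the log2 scale the change was −2.24 (SE 0.31, edgeR adjusted p = 0.00643). Leaving out each tumor in turn moved it between −2.43 and −1.94, with adjusted p from 0.00213 to 0.0251. The separation was also present within each sex, at 25.1 CPM in the 1 female *K-Ctrl* tumor against 4.62 to 6.43 in 3 *K-Setd2KO* tumors, and at 13.5 to 38 in 3 males against 4.52 in 1.

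The stretch before the start of *Cd22* is shown because it is the 1 member that passed the test. RefSeq promoter sequence was found for 4 of the 9 members, and its 250 bases before each start were searched on both strands for 4 motifs of B lineage or general promoters, the octamer (atttgcat), an ETS core (aggaagt), an EBF-type core (tccc, any 2 bases and ggga, which is palindromic) and a TATA box (tataaa). This search was added after the values were seen. The RefSeq starts used for *Cd22* and *Cd79a* lie inside the longer gene spans of the count table given above. The line gives 148 bases upstream of the RefSeq start of *Cd22* that no annotated exon covers, which fall within an intron of that longer gene (GRCm38.p6, chr7:30879029-30879176, minus strand, 5′ to 3′). Capitals mark the only match in the *Cd22* window, an EBF-type core whose first base lies 49 bases before the RefSeq start.
Cd22 upstream: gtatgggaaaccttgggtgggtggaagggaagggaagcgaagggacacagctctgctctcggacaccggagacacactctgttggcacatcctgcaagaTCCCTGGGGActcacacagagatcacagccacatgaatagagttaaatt
Over 32851 RefSeq promoters such a window held the EBF-type core in 0.779%, the octamer in 1.6%, the ETS core in 7.69% and the TATA box in 12.4%. *Cd79a* had 1 match, an ETS core 55 bases before its RefSeq start, and *Pax5* and *Jchain* had none. A match describes letters, not a bound site.

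Among the plasma cell genes, the kappa constant gene *Igkc* (ENSMUSG00000076609.2, chromosome 6, 70726435 to 70726966, plus strand) had the highest counts of the 9. It stood at 537, 5747, 1252 and 2715 CPM in *K-Ctrl* and 554, 2443, 185 and 398 CPM in *K-Setd2KO*. Replicate 2 was the highest tumor in either group, and *K-Ctrl* replicate 1 was no higher than *K-Setd2KO* replicate 1. Its log2 fold change was −1.52 (SE 0.90, adjusted p = 0.292; exact permutation p = 0.200), and it moved between −2.77 without *K-Setd2KO* replicate 2 and −0.75 without *K-Ctrl* replicate 2. Genes of chromosome 6, on which the kappa locus lies, stood above the *K-Ctrl* mean by a median of 0.33, 0.32 and 0.38 (log2) in *K-Setd2KO* replicates 1, 3 and 4 and by −0.03 in replicate 2, against −0.01 to 0.01 for other autosomes in these 4 tumors. These values were added after the data were seen, and their part in the *Igkc* value was not tested.

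*Jchain* (chromosome 5, 88519809 to 88527891, minus strand) encodes the protein that links IgA and IgM into polymers. Its level was 149, 2499, 386 and 546 CPM in *K-Ctrl* and 76.9, 563, 87.9 and 90.9 CPM in *K-Setd2KO*. *K-Setd2KO* replicates 1, 3 and 4 lay below every *K-Ctrl* tumor, and replicate 2 lay above all but 1 of them. The log2 fold change was −2.13 (SE 0.97, adjusted p = 0.181; exact permutation p = 0.200). Leaving out *K-Setd2KO* replicate 2 gave −3.40 with an adjusted p of 0.0469, in a fit that called 7.97% of tested genes lower, and leaving out *K-Ctrl* replicate 2 gave −0.82 (adjusted p = 0.558). With replicate number as a term beside genotype (the replicate block) it was −1.96 (adjusted p = 0.0181), in a fit that called 6.28% lower.

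*Mzb1* (chromosome 18, 35647266 to 35649367, minus strand), which encodes a chaperone of antibody assembly, had 0.923, 16.4, 3.60 and 5.18 CPM in *K-Ctrl* and 2.72, 4.59, 1.75 and 2.74 CPM in *K-Setd2KO*. *K-Ctrl* replicates held both the highest and the lowest tumor. Its log2 fold change of −1.13 (SE 0.73, adjusted p = 0.337; exact permutation p = 0.400) shrank to −0.12 (adjusted p = 0.923) without *K-Ctrl* replicate 2.

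Levels between genes were compared per kilobase of exon. In *K-Ctrl* the order was *Igkc* (4817 ± 4339 CPM per kilobase, SD, n = 4), *Jchain* (356 ± 430), *Ighm* (7.50 ± 4.88), *Mzb1* (7.21 ± 7.52), *Cd79b* (6.94 ± 2.48), *Cd79a* (5.77 ± 5.13), *Cd22* (4.89 ± 2.06), *Ms4a1* (0.771 ± 0.686) and *Pax5* (0.426 ± 0.320). Among the 5 genes from *Ighm* to *Cd22*, neighbors in the order overlapped, as did *Ms4a1* and *Pax5*, while the ranges of *Igkc* and *Jchain*, of *Jchain* and *Ighm* and of *Cd22* and *Ms4a1* did not overlap. In *K-Setd2KO* the order was *Igkc* (1682 ± 1960), *Jchain* (81.3 ± 94.9), *Ighm* (26.8 ± 28.7), *Cd79b* (9.12 ± 2.17), *Mzb1* (3.26 ± 1.31), *Cd79a* (1.57 ± 1.13), *Cd22* (1.04 ± 0.175), *Ms4a1* (0.135 ± 0.142) and *Pax5* (0.0777 ± 0.119). There the ranges of *Igkc* and *Jchain* did not overlap, nor did those of *Cd79b* (6.58 to 11.7) and *Mzb1* (1.94 to 5.07) or of *Cd22* (0.907 to 1.29) and *Ms4a1* (0.0149 to 0.324), while all other neighbors overlapped. By group mean, *Igkc* and *Jchain* led in both groups, though *Jchain* and *Ighm* overlapped in *K-Setd2KO*, and *Ms4a1* and *Pax5* were last.

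The 9 genes did not vary as 1 block. After the mean of each group was subtracted, Pearson correlations of log2 CPM over the 8 tumors, given as a description of points that share library and depth, put *Cd79a* with the plasma cell genes, at 0.95 with *Igkc*, 0.97 with *Jchain* and 0.95 with *Mzb1*, at 0.84 with *Cd79b*, and also at 0.97 with *Irf4*, a transcription factor that plasma cells require. The same measure was 0.53 for *Cd79a* with *Ms4a1*, 0.42 with *Pax5* and 0.09 with *Cd22*. Outside the gene lists used here, the 5 tested genes most like *Cd79a* included *Ighv2-3* (0.98), *C130026I21Rik* (0.98), *Gaa* (0.98) and *Igkv3-4* (0.97). For *Igkc* they were *Igkv1-117* (0.996), *Igkv3-4* (0.97), *Sssca1* (0.97), *Ighv1-69* (0.97) and *Batf3* (0.97). Antibody variable segments made up 42 of the 100 genes nearest to *Cd79a* and 37 of the 100 nearest to *Igkc*.

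*Ms4a1* and *Cd22* were added to this comparison after the values were seen. *Ms4a1* varied with *Fcer2a*, the low-affinity IgE receptor of naive B cells (0.91), with *Ighm* (0.86) and *Pax5* (0.82), and also with the T cell gene *Cd3e* (0.92). Outside the gene lists, the 5 genes nearest to *Ms4a1* were *Lgals3bp* (0.99), *Xrcc5* (0.99), *Lpgat1* (0.98), *Asb2* (0.98) and *Gpr132* (0.98), above the values just given. None of the 100 genes nearest to *Ms4a1* was an antibody variable segment. *Cd22* stood apart from both sets, at −0.18 with *Ms4a1*, −0.44 with *Pax5* and 0.14 with *Igkc*. Its 5 nearest genes were *Gga1* (0.97), *Gm16096* (0.97), *Plk3* (0.96), *1700001L05Rik* (0.96) and *Trem2* (0.95), the last a receptor of macrophages. Among leukocyte markers it stood at 0.53 with *Ptprc*, 0.50 with the macrophage gene *Csf1r* and 0.74 with the macrophage gene *Mrc1*, whose level was 190 to 491 CPM in *K-Ctrl* and 72.4 to 98.4 in *K-Setd2KO*. Macrophage markers summed to 454 to 1438 CPM against 155 to 305 in *K-Setd2KO*, with 4 of 6 called lower and none at 0, and their part in the *Cd22* result was not tested.

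**Figure D2:**
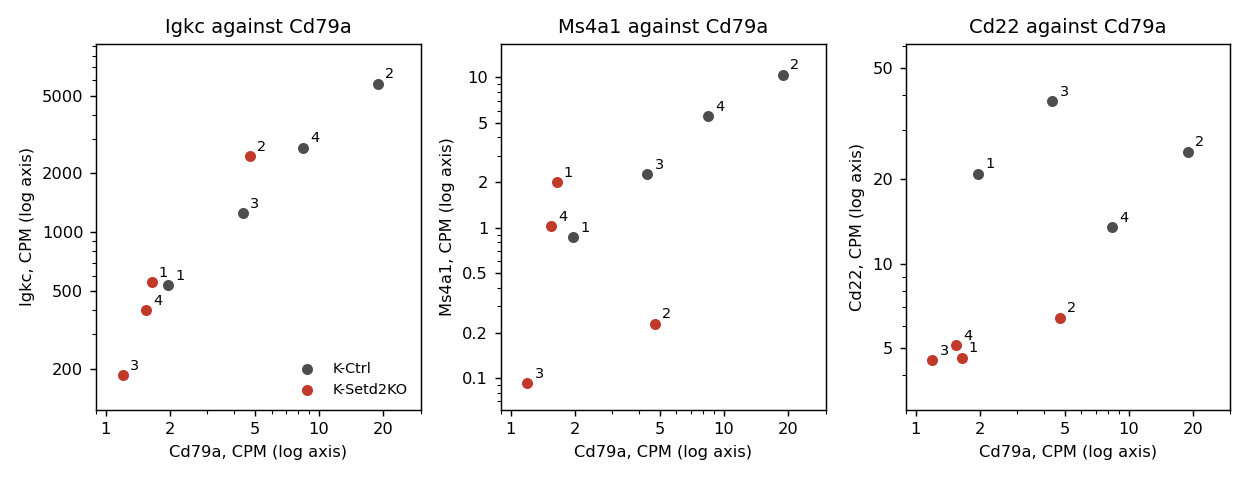
*Igkc*, *Ms4a1* and *Cd22* plotted against *Cd79a*, each point 1 tumor with its replicate number and both axes CPM on a log scale. *Igkc* followed *Cd79a* across the 8 tumors, and the groups did not overlap in *Cd22*. In the *Ms4a1* panel, *K-Setd2KO* replicates 2 and 3 fell below the trend (0.229 and 0.0923 CPM) and replicate 1 lay above it (2.00 CPM).

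Within *K-Setd2KO*, replicate 2 had the highest *Igkc*, *Jchain* and *Mzb1* of the 4 tumors (2443, 563 and 4.59 CPM) with *Ms4a1* and *Pax5* at 0.229 CPM each, or 3 counts each. Replicate 1 had the highest *Ms4a1* and *Pax5* (2.00 and 2.26 CPM) of the 4, with *Jchain* at 76.9 CPM, the lowest of all 8 tumors, *Igkc* at 554 CPM, the second highest of the 4, and *Mzb1* at 2.72 CPM. Ratios within a tumor were compared for 5 pairs fixed by name, with a prior of 0.5 counts. For *Igkc* over *Cd79a* the log2 ratio averaged 8.20 ± 0.114 in *K-Ctrl* tumors and 8.13 ± 0.749 in *K-Setd2KO* tumors (SD over 4 tumors, exact permutation p = 0.800, adjusted p = 0.83). The *Jchain* to *Cd79a* ratio was lower by 0.34 in *K-Setd2KO* and the *Cd79a* to *Cd3e* ratio higher by 0.26, both within the spread between tumors.

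*Cd79a* relative to *Ptprc*, which encodes the leukocyte antigen CD45, had a log2 ratio of −5.15 ± 1.19 in *K-Ctrl* tumors and −4.76 ± 1.03 in *K-Setd2KO* tumors (SD over 4 tumors, exact permutation p = 0.686). *Ptprc* itself fell, at 144 to 347 CPM against 45.1 to 61.3. For *Ighm* over *Cd79a*, *K-Ctrl* tumors had 1.49, 0.37, 0.70 and 1.21 and *K-Setd2KO* tumors 5.84, 0.33, 0.10 and 5.93 (log2, exact permutation p = 0.429). *K-Setd2KO* replicates 1 and 4 thus stood above the other 6 tumors, and *K-Setd2KO* replicates 2 and 3 below every *K-Ctrl* tumor. The adjusted p over the 5 ratios was 0.83 for each, and no ratio separated the groups.

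Other B cell genes were examined in a list of 23, of which 18 passed the low-count filter. Of these, 2 fell, none rose, and 16 were not called, a share near the 7.74% called lower over all tested genes. The sign was negative for 16 of 18, with a median of −1.29 on the log2 scale that was −0.69 without *K-Ctrl* replicate 2 (15 of 19 negative) and −1.98 with the sex term. *Cd37*, a tetraspanin of B cells that other leukocytes also carry, fell, with 14.2 ± 6.15 CPM in *K-Ctrl* against 4.16 ± 1.58 in *K-Setd2KO* (SD of 4 tumors, log2 fold change −1.77, adjusted p = 0.0230). *Ebf1* fell, with 9.78 ± 2.17 CPM in *K-Ctrl* and 3.75 ± 1.18 in *K-Setd2KO* (log2 fold change −1.36, adjusted p = 0.0191). The call of *Cd37* was lost without *K-Ctrl* replicate 2 or 3 or *K-Setd2KO* replicate 3 (adjusted p from 0.0574 to 0.0659) and with the replicate block (0.0803). That of *Ebf1* was lost without *K-Ctrl* replicate 1 or *K-Setd2KO* replicate 3 (0.0551 and 0.0532). *Cd180*, a Toll-like receptor homolog of B cells, was next at −1.32 (adjusted p = 0.0852).

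The 5 genes of that list under the filter had few counts, and 3 of them did not overlap between groups, all lower in *K-Setd2KO*, which held for 2.36% of the 13496 genes with counts under the filter. *Vpreb3* had 88 counts over the *K-Ctrl* tumors and 3 over the *K-Setd2KO* tumors, *Fcrla* had 89 and 5, and the B cell kinase gene *Blk* had 77 and 9. In a fit with no low-count filter, where 3.55% of 28425 genes were called lower, these 3 were called lower (adjusted p = 0.00697, 0.0123 and 0.0452), and *Cr2* and *Fcmr* were not (0.180 and 0.164).

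B cell receptor signaling genes had the most calls of the B lineage lists. All 16 were tested, 11 fell and none rose, against 7.74% and 4.97% of all tested genes, the median log2 fold change being −1.25. Without *K-Ctrl* replicate 3, 7 were called lower. The 3 with the smallest p were *Pik3ap1*, an adaptor for PI3-kinase (54.5 ± 15.7 to 13.3 ± 2.89 CPM), *Vav1*, a guanine nucleotide exchange factor (26.4 ± 7.81 to 8.08 ± 1.36), and *Syk*, the kinase that binds phosphorylated CD79A and CD79B (82.2 ± 26.6 to 21.9 ± 5.98; SD, n = 4 each). *Btk*, *Lyn*, *Plcg2*, *Inpp5d*, *Pik3cd*, *Ptpn6* and *Rasgrp3* were among the others that fell. The calls of *Rasgrp3*, *Lyn* and *Ptpn6* were near the threshold (adjusted p = 0.0460, 0.0265 and 0.0280) and were lost in 7, 4 and 3 of the 8 fits that left out 1 tumor, and *Pik3cd* was lost without *K-Ctrl* replicate 3. The 11 are used by myeloid cells or other leukocytes as well. Pan-leukocyte and macrophage markers moved with them (5 of 6 and 4 of 6 called lower), and their part in these calls was not tested. *Blnk*, the adaptor downstream of SYK in B cells, was not called (3.40 ± 2.36 and 1.48 ± 1.26 CPM, adjusted p = 0.287), and *Malt1* and *Bcl10* stood at −0.20 and 0.09 (log2, adjusted p = 0.721 and 0.702).

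**Figure D3:**
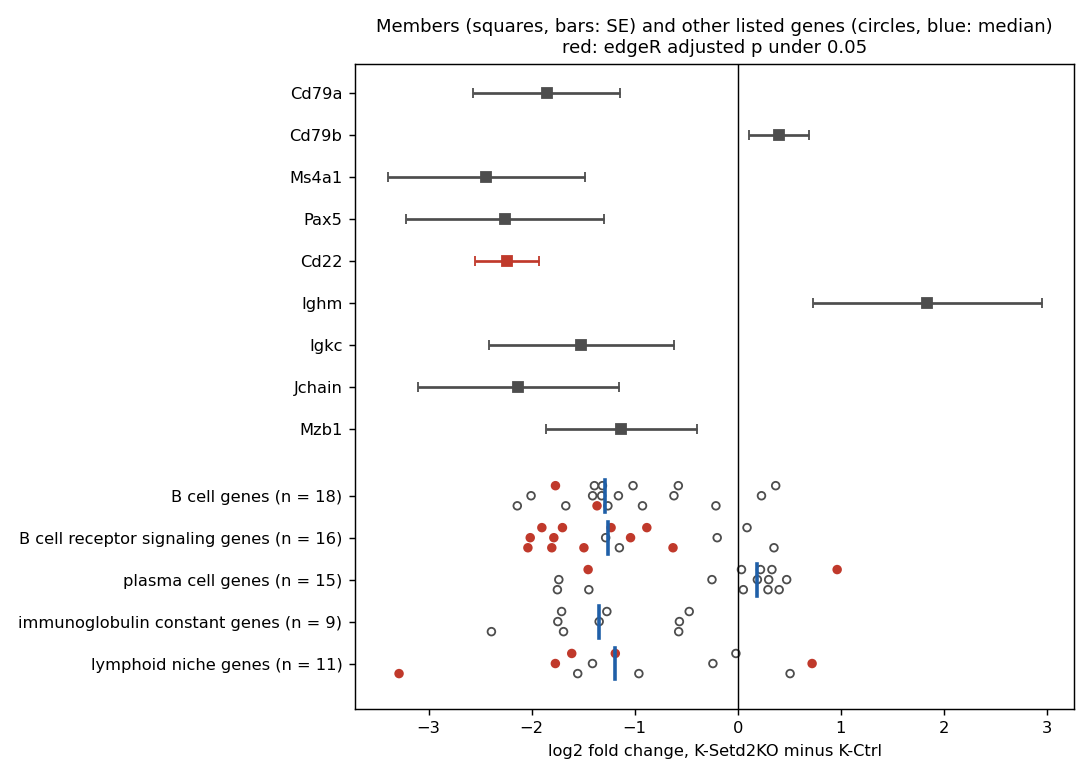
Log2 fold change of each member (square, with its SE) and of the tested genes of 5 other lists (circles, with the list's median as a blue line), in *K-Setd2KO* relative to *K-Ctrl*. Red marks genes with an edgeR adjusted p under 0.05. *Cd22* is the 1 red square, and 11 of the 16 receptor signaling genes are red.

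Plasma cell genes gave no common direction. Of 16 listed, 15 were tested, 1 fell (*Prdm1*), 1 rose (*Sdc1*) and 13 were not called, with a median of 0.19. The sign was negative for 5 of 15. At an unadjusted p under 0.05 there were 6, with *Prdm1*, *Irf4*, *Slamf7* and *Tnfrsf13b* lower and *Sdc1* and *Txndc5* higher. Each count of 1 was near the share of all tested genes called (7.74% lower and 4.97% higher). The call of *Prdm1* was lost without *K-Setd2KO* replicate 3 (adjusted p = 0.0547). *Sdc1*, the plasma cell surface proteoglycan syndecan-1 that epithelial cells also make, rose, with 364 ± 87.8 CPM in *K-Ctrl* against 711 ± 83.3 in *K-Setd2KO* (SD of 4 tumors, log2 fold change 0.97, adjusted p = 0.0134). *Prdm1*, the repressor that drives plasma cell differentiation, fell, with 13.7 ± 6.26 CPM in *K-Ctrl* and 4.98 ± 0.751 in *K-Setd2KO* (log2 fold change −1.45, adjusted p = 0.0197). *Slamf7* (−1.75, adjusted p = 0.0919), *Irf4* (−1.74, adjusted p = 0.104) and *Tnfrsf13b* (−1.44, adjusted p = 0.101) were not called. *Xbp1*, a secretory regulator that many cells express, stood at 208 ± 35.3 and 216 ± 37.8 CPM. In *K-Ctrl*, *Herpud1*, *Txndc5* and *Edem1* had means of 294, 182 and 161 CPM, against 12.5 for *Irf4* and 10.3 for *Tnfrsf13b*. Which cells gave these counts was not tested. *Tnfrsf17*, which encodes the plasma cell receptor BCMA, had 24 counts over *K-Ctrl* and 9 over *K-Setd2KO*.

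Germinal center, precursor and niche genes completed the lineage. Of 7 germinal center genes 4 were tested and none was called by edgeR with genotype alone in all 8 tumors, with 2 at an unadjusted p under 0.05. DESeq2 and limma voom each called 1 lower (*Mybl1*), as did edgeR without *K-Setd2KO* replicate 1, and edgeR with the sex term called *Gcsam*. All 5 precursor genes were under the filter, and *Rag2* had no count in any tumor. Among 15 genes of lymphoid niches 11 were tested, 4 fell and 1 rose, against the 7.74% and 4.97% of all tested genes. Leaving out single tumors gave 2 to 4 called lower, with 2 without *K-Ctrl* replicate 1, 2 or 3 or *K-Setd2KO* replicate 2 or 3, where *Tnfsf13b* and *Ccl21a* lost their calls. *Ccl21a* also lost it with no low-count filter, with the sex term and with the replicate block (adjusted p from 0.0666 to 0.0945). The B cell survival factor gene *Tnfsf13b* (BAFF) fell, with 13.3 ± 3.54 CPM in *K-Ctrl* and 4.32 ± 2.56 in *K-Setd2KO* (log2 fold change −1.61, adjusted p = 0.0355), and the homing receptor genes *Ccr7* (log2 fold change −3.29, adjusted p = 0.0102) and *Cxcr4* (−1.77, adjusted p = 0.00791) and the chemokine gene *Ccl21a* (−1.19, adjusted p = 0.0344) also fell. *Ltbr*, the lymphotoxin receptor of stromal and epithelial cells, rose (log2 fold change 0.72, adjusted p = 0.00881). *Cxcl13*, the chemokine that draws B cells, was not called (11.3 ± 10.7 and 4.26 ± 3.33 CPM, adjusted p = 0.315), nor was *Pigr* (8.95 to 105 CPM over all tumors, adjusted p = 0.282).

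T cell markers were set beside the B cell genes as a check of other lymphocytes. They summed to 25.3 to 131 CPM in *K-Ctrl* and 4.98 to 42.4 in *K-Setd2KO*, and all 10 were negative with a median log2 fold change of −1.58. That median was −0.66 without *K-Ctrl* replicate 2 (9 of 10 negative) and −2.54 without *K-Setd2KO* replicate 1. No T cell marker was called by edgeR with genotype alone in all 8 tumors (4 at an unadjusted p under 0.05) or by limma voom (0), DESeq2 called 2 and edgeR with the sex term called 5. Endothelial and erythroid markers were also negative, 5 of 5 each with medians of −1.45 and −1.74, of which edgeR with genotype alone called 1 and 0 (4 and 5 at an unadjusted p under 0.05), DESeq2 4 and 4, the replicate block 3 and 4 and limma voom 1 and 0. Without *K-Ctrl* replicate 1 the erythroid median was −1.06. With the sex term none of either list was called (2 and 0 at an unadjusted p under 0.05). The part of these cells in the B lineage values was not tested. Plasmacytoid dendritic cell markers summed to 13.2 to 35.3 and 7.24 to 40.5 CPM, and none of 3 tested was called (1 at an unadjusted p under 0.05).

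The antibody class of the heavy chain was read from the constant genes of each tumor, a comparison added after the values were seen. *Igha* took 93.4%, 91.4%, 94.6% and 86.1% of heavy chain constant counts in *K-Ctrl*. In *K-Setd2KO* it took 29.3% (95% Wilson interval 28.5 to 30.2), 94.9%, 89.9% and 57.9% (55.8 to 59.9), the intervals covering counting error only. *K-Setd2KO* replicates 1 and 4 stood apart from the other 6 tumors. In replicate 1 the 4 IgG genes together took 50.3% (49.3 to 51.2) and *Ighm* 18.3%, and in replicate 4 *Ighm* took 25.4% (23.7 to 27.2) and IgG 16.6%.

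In *K-Ctrl* the share of *Ighm* was 0.449% to 1.23%, and in *K-Setd2KO* replicates 2 and 3 it was 0.291% and 0.621%. *Ighe* (IgE) reached 1.70% in replicate 1, with 173 of 10155 counts, against at most 0.133% elsewhere. Corrected for gene length, *Igha* took 21.8% in replicate 1 and 49.2% in replicate 4 against 81.5% to 93.1% in the other tumors. Between the groups, the shares of *Igha*, *Ighm*, IgG and lambda light chain did not differ beyond the spread between tumors (exact permutation p = 0.286, 0.400, 0.229 and 0.200). As levels, none of the 9 tested constant genes other than *Ighm* and *Igkc* was called by edgeR with genotype alone in all 8 tumors, by DESeq2 or by limma voom, with 1 at an unadjusted p under 0.05 in each (*Iglc2* in edgeR, log2 fold change −2.39, adjusted p = 0.144), and *Igha* stood at 2028 ± 2020 and 628 ± 880 CPM (SD, n = 4 each). Related constant genes such as *Ighg2b* and *Ighg2c*, or *Iglc2* and *Iglc3*, may share reads, so their split is uncertain.

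**Figure D4:**
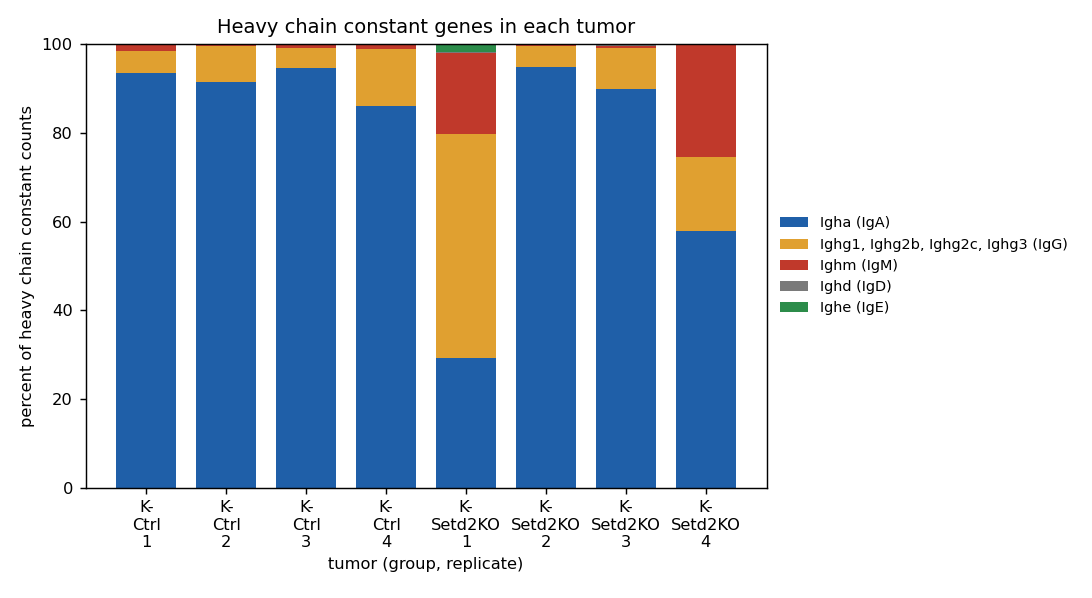
Percent of heavy chain constant counts taken by each antibody class, 1 stacked bar per tumor. *Igha* fills 86.1% or more of 6 bars, and the bars of *K-Setd2KO* replicates 1 and 4 hold 29.3% and 57.9%.

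Variable segments, the germline pieces that B cells join to build the antigen-binding part, gave a further view of the same cells. Counts were present for 202 of the 216 segments listed, and 121 were tested. Of these 9 fell and none rose, or 7.44% called lower against 7.74% over all genes, while 120 of 121 were negative and the median was −2.23 on the log2 scale. The 121 segments come from the same cells of each tumor and are no independent measurements. Summed over a locus, heavy chain segments gave 108, 1254, 275 and 561 CPM in *K-Ctrl* and 69.8, 336, 57.7 and 72.2 CPM in *K-Setd2KO*. The mean log2 value differed by −1.93 for the heavy, −1.98 for the kappa and −2.33 for the lambda locus (exact permutation p = 0.0857, 0.114 and 0.114). The groups overlapped in each, since *K-Setd2KO* replicate 2 lay above *K-Ctrl* replicates 1 and 3, and for lambda also above *K-Ctrl* replicate 4. Leaving out single tumors moved the 3 differences between −2.54 and −1.36, −2.65 and −1.27, and −3.23 and −1.69, each smallest without *K-Ctrl* replicate 2.

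The share of the leading segment within a locus was compared between tumors, also after the values were seen. In *K-Setd2KO* replicate 1, *Ighv1-81* took 21.7% of heavy chain segment counts (295 of 1360, 95% Wilson interval 19.6 to 24), against 0.101% to 3.31% in the other 7 tumors. The leading heavy segment of those 7 tumors took 5.76% to 9.86%. In the same tumor *Igkv6-15* took 16.1% of kappa segment counts (14.7 to 17.6), against leading shares of 6.39% to 11% elsewhere. *Igkv6-15* also led in *K-Ctrl* replicates 1, 2 and 3, at 8.76%, 11% and 7.56%. Its segment usage was also the least like that of the other tumors, with a median Pearson correlation over segments of 0.23 for the heavy and 0.57 for the kappa locus, against at least 0.40 and 0.72 for the others.

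The reference segments behind these shares are printed to show what the counts refer to (GENCODE M21 transcripts, GRCm38, minus strand, 5′ to 3′). *Ighv1-81* and *Igkv6-15* led in *K-Setd2KO* replicate 1, the latter also in 3 *K-Ctrl* tumors, and *Ighv9-3* led among heavy segments in *K-Ctrl* replicate 1. The lines give the last 240 bases of each segment, all within its final exon. Capitals mark the 9 bases that encode tyrosine, phenylalanine and cysteine at the end of the framework, after which the loop that differs most between B cell clones begins.
Ighv1-81 (chr12:115920279-115920518): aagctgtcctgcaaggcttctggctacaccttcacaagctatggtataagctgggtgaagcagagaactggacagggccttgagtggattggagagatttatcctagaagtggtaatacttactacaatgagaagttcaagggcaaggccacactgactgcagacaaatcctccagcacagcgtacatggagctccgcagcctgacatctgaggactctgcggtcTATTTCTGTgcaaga
Ighv9-3 (chr12:114140692-114140931): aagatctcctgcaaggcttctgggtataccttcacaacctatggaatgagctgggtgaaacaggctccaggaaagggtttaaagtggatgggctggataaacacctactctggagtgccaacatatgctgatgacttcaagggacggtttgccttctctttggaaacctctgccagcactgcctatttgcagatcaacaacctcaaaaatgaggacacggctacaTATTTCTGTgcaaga
Igkv6-15 (chr6:70406469-70406708): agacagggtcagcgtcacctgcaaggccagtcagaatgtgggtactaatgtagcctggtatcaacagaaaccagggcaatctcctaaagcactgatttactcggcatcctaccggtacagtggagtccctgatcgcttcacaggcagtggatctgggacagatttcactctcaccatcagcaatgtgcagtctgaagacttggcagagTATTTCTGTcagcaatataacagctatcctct
The capital stretch is the same in these 3 segments, and the junction itself is not held in a gene count. Segments of 1 family share long runs of sequence and the mice carry 129 as well as B6 alleles, so the assignment of reads to a single segment is uncertain.

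**Figure D5:**
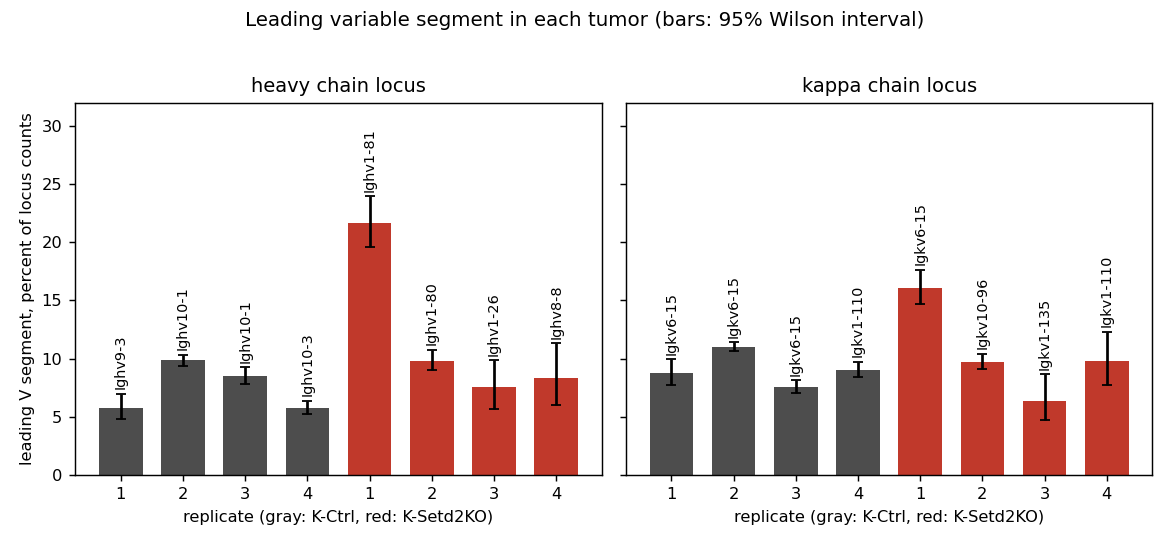
Share of the most abundant variable segment among the segment counts of the heavy chain and kappa chain loci, 1 bar per tumor with the segment's name and a 95% Wilson interval. *K-Setd2KO* replicate 1 has the tallest bar in both panels (21.7% and 16.1%).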

How the data were processed

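Raw counts, whole numbers of reads per gene with no normalization, were deposited as 1 table with a column per tumor. Per the labels, the authors used STAR 2.5.2b, featureCounts 1.5.0-p1 and GRCm38.p4 for these counts, and the annotation release and strand setting are not given in the sources used here. Libraries were strand-aware mRNA libraries sequenced in pairs. Symbols came from GENCODE M21 (48349 of 48709 identifiers, 99.26%). Genotypes were compared in R 4.3.3 with edgeR 4.0.16 (filterByExpr, TMM, robust quasi-likelihood test, Benjamini-Hochberg adjustment over 14929 genes, SE as the absolute log2 fold change over the square root of F). The study used DESeq2, run here (1.42.0) as an alternative beside limma 3.58.1. Exact permutation tests were two-sided over 70 assignments. Scripts were tested on simulated data. No pair of libraries in a group agreed within sampling noise (chi-square per degree of freedom at least 30.5). Genes overlapping *Cd22*, *Ms4a1* and *Pax5* had at most 1 count, and *Gm30211*, overlapping *Igkc*, had 66 against 181679. Named genes were the members, listed genes (the 3 smallest p-values per list and calls against its median), the 3 most abundant segments per locus and the 5 genes most like *Cd79a* and *Igkc*. Those most like *Ms4a1* and *Cd22* were added later. Members and lists were chosen with earlier results of these data known. Some genes of the lists are not reported here.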

Additional observations from a re-analysis of the deposited data

Results flagged for a closer look

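Within each group of 4, the highest and lowest tumors were compared with Dixon's 95% limit for a value that stands off. Of 36 groups of 4 values examined, 8 held such a tumor, where chance gives about 1.8. Tumors share RNA between these measures, so the 8 are not independent. *K-Setd2KO* replicate 2 stood above its group for *Cd79a* (4.74 CPM against 1.20 to 1.64), *Igkc* (2443 against 185 to 554), *Jchain* (563 against 76.9 to 90.9) and the summed heavy, kappa and lambda variable segments (336, 586 and 40.8 CPM against 57.7 to 72.2, 54.9 to 124 and 3.05 to 4.01). It was not apart for *Ms4a1*. *K-Setd2KO* replicate 1 stood above its group for *Pax5* (2.26 CPM against 0.0923 to 0.229). *K-Ctrl* replicate 2 stood above its group for *Jchain* (2499 CPM against 149 to 546).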

How the results depend on the processing

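The call of *Cd22* held in the main test and in every alternative run. The count of members called lower was 1 with edgeR, 3 with DESeq2, 3 with a sex term, and 1 to 2 when single tumors were left out (2 without *K-Setd2KO* replicate 1, which added *Pax5*, and 2 without replicate 2, which added *Jchain*). Tumors with the same replicate number did not deviate together (correlations of −0.07, −0.03, 0.19 and −0.02), so the numbers do not pair them, and a replicate block gave 2 members, the second being *Jchain* (−1.96, adjusted p = 0.0181). Background calls of lower genes were 12.5% with DESeq2, 5.25% with the sex term and 6.28% with the block. *Ighm* turned to −0.45 with the sex term. Of 132 alternative values for single members, 124 kept direction and side of the threshold, 7 came to pass it and 1 reversed. *Cd79a*, *Ms4a1* and *Pax5* gave no value where at least 10 counts were required in every tumor. Over all tested genes, edgeR called 1155 lower and DESeq2 1867. Constant genes called lower numbered 0, against 1 with the sex term, 2 with the block and 1 without *K-Setd2KO* replicate 2. T cell markers called lower numbered 0, against 2 with DESeq2, 5 with the sex term and 1 without *K-Setd2KO* replicate 1. Plasma cell genes called lower numbered 1, against 4 with DESeq2, 4 with the sex term and 2 with the block, and other B cell genes 2, against 5 with the sex term, 5 without the low-count filter, 3 with DESeq2, 1 with the block and 1 to 4 without single tumors (1 without *K-Ctrl* replicate 1 or 3 or *K-Setd2KO* replicate 3). Plasma cell genes gave 0 to 2 without single tumors (0 without *K-Setd2KO* replicate 3), and niche genes 4, against 2 to 4. Germinal center genes numbered 0, against 1 with DESeq2, limma voom, the sex term or without *K-Setd2KO* replicate 1. Genes of the 7 B lineage lists called lower numbered 18, and 11 to 20 without single tumors (11 without *K-Ctrl* replicate 3 or *K-Setd2KO* replicate 3). Differences of 3 ratios turned sign without 1 tumor, with ranges of −0.36 to 0.24 for *Igkc* to *Cd79a* (0.24 without *K-Setd2KO* replicate 3), −0.11 to 0.75 for *Cd79a* to *Ptprc* (−0.05 without *K-Ctrl* replicate 1, −0.11 without *K-Setd2KO* replicate 2) and −0.48 to 0.84 for *Cd79a* to *Cd3e* (−0.48 without *K-Setd2KO* replicate 2). No ratio passed the exact test in any setting, but these tests had little room to pass. The smallest p that 4 against 4 tumors can give is 0.0286, and 1 ratio alone could not pass after adjustment over 5. With the replicate block the smallest p of the sign-flip test is 0.125. The cause of the changes between settings was not tested. Depth limits *Ms4a1* and *Pax5*, which had 1 to 6 counts in 3 *K-Setd2KO* tumors each.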
